A study of Mus musculus with 24 samples.

Results

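Wnt ligands, their secreted antagonists and the feedback gene Axin2 were followed in C2C12 cells, a mouse myoblast line. The set held 9 genes (Sfrp1, Sfrp2, Frzb, Dkk2, Dkk3, Wif1, Wnt4, Wnt5a and Axin2), and every probe set annotated to one of these symbols alone was taken. The 9 were taken from 18193 annotated genes, and they had 20 of 45137 non-control probe sets, 16 on the array design named MA in the sample titles and 4 on the design named MB. Cells were transduced with the empty pSuperR vector (vector) or with a short hairpin RNA against p68, the RNA helicase encoded by Ddx5 (shRNA). Each kind was kept in growth medium (GM) or in differentiation medium (DM), in which myoblasts leave the cell cycle and fuse into myotubes. The 4 groups were therefore GM vector, GM shRNA, DM vector and DM shRNA, each with 3 arrays of each design, 24 arrays in all. The aim stated for the series was to examine muscle genes and muscle differentiation under interference with p68 and p72. The labels used here name an shRNA against p68 only, and do not say whether the cells were pools or clones, how long they stayed in DM, or whether replicates were separate cultures.

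Wnt proteins are secreted, lipid-modified ligands that bind Frizzled receptors and LRP co-receptors. In the canonical branch this binding stops the destruction complex, built on Axin and APC, from degrading beta-catenin, which then acts with TCF/LEF factors on target genes. Secreted Frizzled-related proteins (Sfrp1, Sfrp2 and Frzb) and Wif1 bind Wnt ligands outside the cell, whereas Dkk1 and Dkk2 bind the LRP co-receptors. Dkk3 belongs to the Dickkopf family by sequence and is an atypical member of it. In muscle, Wnt signals take part in the specification of myogenic cells in the embryo and in the behaviour of satellite cells, and p68 is known as a coactivator of several transcription factors, beta-catenin and MyoD among them.

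The RefSeq promoter table of GRCm38.p6 held 6 of the 9 genes (Sfrp2, Frzb, Dkk2, Wif1, Wnt4 and Axin2). The 250 bases before each start were searched on both strands for TCF/LEF letters (CTTTG followed by AA, AT, TA or TT) and for the E-box letters CAGCTG and, counted together with them, CACCTG, which muscle regulatory factors can bind. TCF/LEF letters stood in 0 of the 6 windows and in 14.8% of 32851 promoter windows of that length. E-box letters stood in the windows of Frzb, Wif1 and Wnt4 and in 27.7% of all windows. These are matches of letters, not binding sites. The Wnt4 window (chr4:137277385-137277634, plus strand) is shown whole because Wnt4 was the ligand of these 9 genes that fell in DM. Its capitals mark CACCTG, whose first base lies 15 bases before the start. The last 30 bases before the start are given for Sfrp2, the gene with the largest change below (chr3:83766291-83766320, plus strand), and for Axin2, the feedback gene (chr11:108920319-108920348, plus strand). Neither stretch holds either motif. Each start is that of the transcript in the promoter table. The whole windows of Sfrp2 and Axin2 and the end of that of Dkk2 lie inside the gene's RefSeq span, which begins further upstream, so for these genes the search did not cover the bases before the most upstream start.
Wnt4: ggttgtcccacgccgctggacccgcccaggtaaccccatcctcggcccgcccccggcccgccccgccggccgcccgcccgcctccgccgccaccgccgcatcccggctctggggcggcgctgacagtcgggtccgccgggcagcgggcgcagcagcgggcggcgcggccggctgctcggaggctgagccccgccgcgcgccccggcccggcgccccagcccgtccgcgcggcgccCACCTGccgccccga
Sfrp2: caagaaaactctggctgggccccagcctct
Axin2: cctttaaggcgggcggcgcgcgggccggcc

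The values were MAS5 signals, 1 linear intensity for each probe set and array, scaled so that the mean without the outer 2% at each end was 150.1 on MA and 150 on MB arrays. Changes were tested with limma on log2(signal + 15), so a log2 change understates that of a weak probe set. Of the 20 probe sets, 11 reached a signal of 30 in at least 3 of the 12 arrays of their design and were tested, 8 on MA and 3 on MB. They stood for Sfrp1, Sfrp2, Dkk3, Wnt4, Wnt5a and Axin2. Adjusted p is Benjamini-Hochberg over all tested probe sets of a design, 14367 on MA and 19303 on MB, with a threshold of 0.05. Each value below comes from 3 arrays a group, and errors of log2 changes are standard errors. Levels of different probe sets are not compared, since their probes differ. In these whole-culture RNA samples, fewer cells of a type and less RNA per cell cannot be told apart.

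The muscle program and the target of the shRNA were checked on the MA arrays. Myog, a myogenic transcription factor, had mean signals of 77.82 in GM vector and 6860 in DM vector arrays. Of 10 skeletal muscle markers, 8 were higher and 0 lower in DM in each cell kind, and 5 were lower and 1 higher with the shRNA in DM. Ddx5 fell by 0.683 ± 0.155 on the log2 scale with the shRNA in DM (limma adjusted p = 0.00677). In GM its change was -0.306 ± 0.155 and did not pass (adjusted p = 0.287), although the 3 shRNA arrays (351.4 to 388.3) all lay below the 3 vector arrays (420.4 to 489.2). Within its own group, the array with the lowest mean correlation was DM vector replicate 3 on MA (0.951) and DM vector replicate 2 on MB (0.825). Control probes at both transcript ends of Gapdh and beta-actin gave a mean log2 ratio of 3′ over 5′ signal, a sign of RNA quality. Its group medians went from 0.077 in GM vector to 0.032 in GM shRNA, -0.005 in DM vector and 0.003 in DM shRNA arrays on MA. On MB the GM vector arrays (0.084 to 0.127) lay above the GM shRNA arrays (-0.011 to 0.017). The part of this difference in the results below was not tested.

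With the shRNA in GM, Sfrp2 rose and Sfrp1 rose at 1 of its 5 probe sets, while Frzb, Dkk2 and Wif1 were too weak to test. Dkk3 passed at 1448669_at, a call lost in 7 of 20 alternatives, and at 1417312_at, with the limit below. On MA, 4 of the 8 tested probe sets rose, at Sfrp2, Sfrp1 and both Dkk3 probe sets, and none fell. Of these, Dkk3 1417312_at had entered the test only through its GM shRNA signals, so the count of 4 is not support for a shared rise. Over all tested MA probe sets, 3.99% rose and 2.57% fell. In DM, 1 of the 8 rose with the shRNA (Sfrp2) and 1 fell (Wnt4), where 10.7% of all rose and 6.24% fell. On MB, 0 of 3 tested probe sets passed limma's adjusted threshold for the shRNA in either medium. At an unadjusted p under 0.05 there were 1 of 3 in GM and 2 of 3 in DM. The MB backgrounds were 0.207% higher and 0.0673% lower in GM, and 0.782% higher and 0.389% lower in DM. With 3 probe sets, such low shares leave the MB counts with little to be read from them.

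In DM against GM, 3 of 8 MA probe sets fell in vector cells and 5 of 8 in shRNA cells, and none rose in either. Of the 3, the call of Sfrp1 1448395_at was lost in 15 of 21 alternatives and that of Wnt4 in 4 of 21. The 5 include Dkk3 1417312_at, again by way of its GM shRNA signals. The MA background was large, with 23.9% of all tested probe sets higher and 25.4% lower in vector cells, and 16.3% higher and 17.5% lower in shRNA cells. The 3 falls in vector cells are therefore not read as a direction shared by these genes. On MB, 1 of 3 fell in vector cells (Sfrp1) and 2 of 3 in shRNA cells (Sfrp1 and Wnt4). Over all tested MB probe sets, 4.21% were higher and 5% lower in vector cells, and 2.27% higher and 2.57% lower in shRNA cells. The effect of the shRNA differed between the media, by the interaction of medium and shRNA, at Sfrp2, with a smaller rise in DM. Dkk3 1417312_at also passed, with no rise in DM, but its high GM shRNA signals alone had brought it into the test, so it is not read as a second result. Of all tested MA probe sets, 5.48% had a higher and 4.48% a lower interaction. On MB, 0 of 3 passed the interaction and 0 of 3 had an unadjusted p under 0.05 in limma, against 0.223% higher and 0.166% lower over all.

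**Figure D1:**
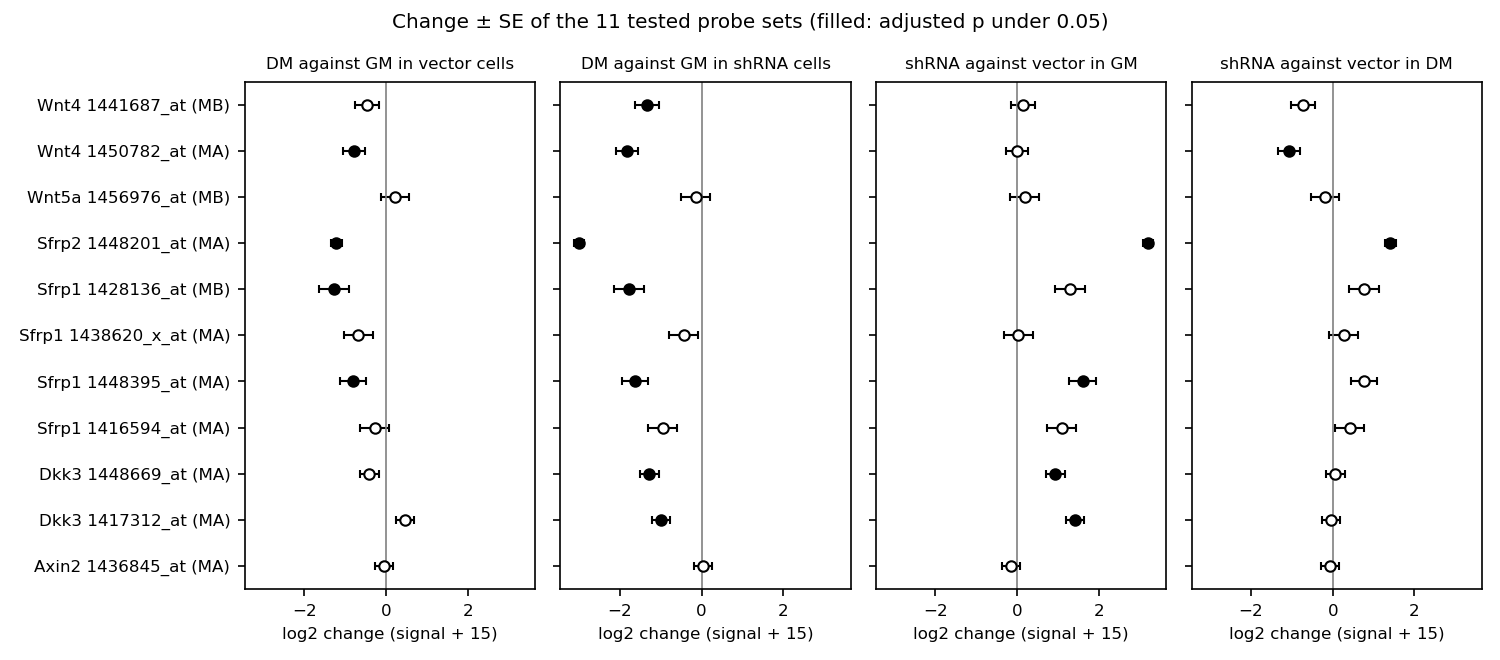
Log2 change of signal + 15, with its standard error, for the 11 tested probe sets in 4 comparisons of 3 against 3 arrays, each on the same horizontal scale. Filled points passed an adjusted p of 0.05 and open points did not. Sfrp2 stands furthest from 0 in both DM against GM in shRNA cells (-3.0) and shRNA against vector in GM (3.2), and every filled point for a change of medium lies below 0.

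Sfrp2 encodes a secreted Frizzled-related protein that is abundant in mesenchymal tissues. Its probe set, 1448201_at on MA, gave signals of 260.6, 229.0 and 297.8 in GM vector arrays and of 2680, 2133 and 2777 in GM shRNA arrays. In DM the signals were 92.31, 107.6 and 113.7 with the vector and 292.4, 300.8 and 311.2 with the shRNA. All GM shRNA arrays stood above every other array and all DM vector arrays stood below every other array. The order of the group means was GM shRNA (2530 ± 347, SD, n = 3), DM shRNA (301.5 ± 9.37), GM vector (262.5 ± 34.4) and DM vector (104.5 ± 11). DM shRNA and GM vector were the one pair of neighbours whose ranges overlapped.

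With the shRNA, Sfrp2 rose in GM by 3.2 ± 0.130 on the log2 scale, a ratio of mean signals of 9.64 (limma adjusted p = 3.58e-09). That was rank 1 of 14367, the highest change of any tested MA probe set in that comparison. In DM the rise was 1.41 ± 0.130, a ratio of 2.88 (adjusted p = 5.52e-06), at rank 78. The difference between these rises was -1.79 ± 0.184 (adjusted p = 4.61e-05 for the interaction). From GM to DM, Sfrp2 fell by 1.21 ± 0.130 in vector cells (adjusted p = 2.18e-06) and by 3.0 ± 0.130 in shRNA cells (adjusted p = 3.41e-10). The fall in shRNA cells was the 4th lowest change of 14367. The call of Sfrp2 held under every alternative run, with the GM rise between 3.04 and 3.31.

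**Figure D2:**
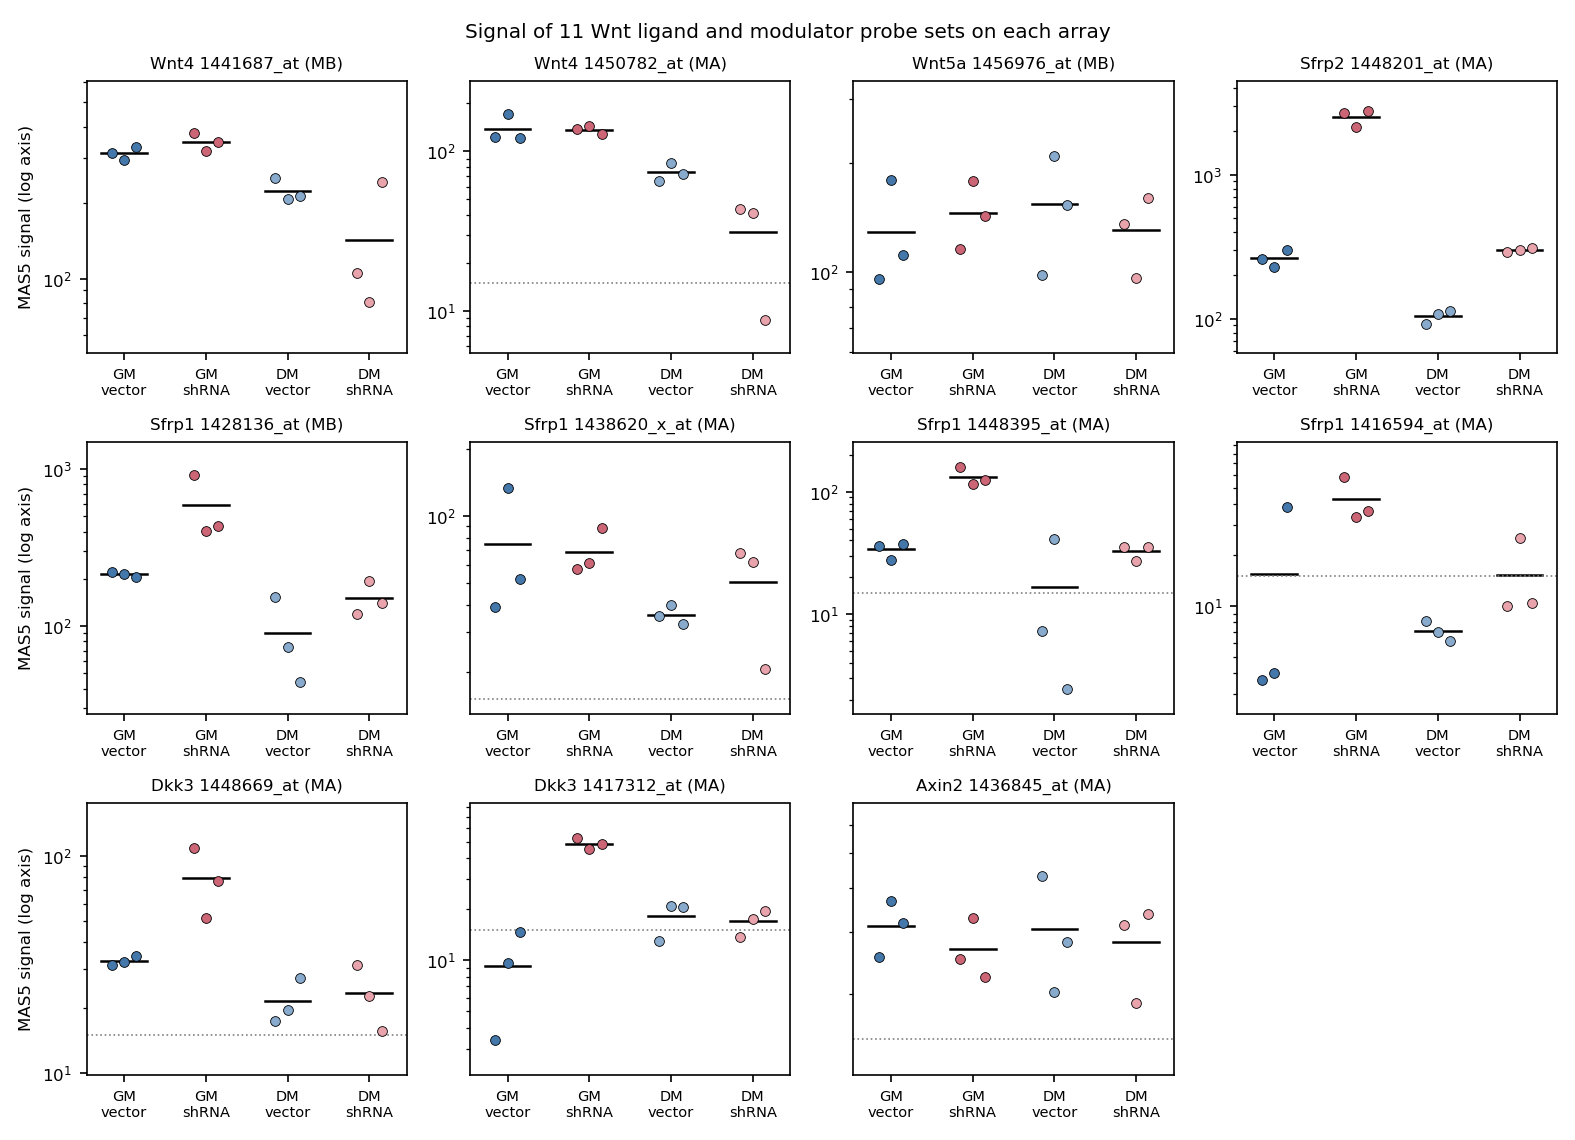
MAS5 signal (log axis, with its own range in each panel) of the 11 tested probe sets on each array, by group, with the group mean of linear signals as a bar and the pseudocount of 15 as a dotted line where it falls in range. The 3 GM shRNA arrays are the highest for Sfrp2, for Sfrp1 1448395_at and 1428136_at and for both Dkk3 probe sets, whereas the groups overlap for Axin2 and Wnt5a.

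Sfrp1 encodes the closest relative of Sfrp2 among these genes and also binds Wnt ligands. It had 5 probe sets, and they did not all show the same. On MA, 1448395_at gave 36.35, 27.52 and 37.51 in GM vector and 157.8, 115.8 and 124.8 in GM shRNA arrays, which did not overlap. In DM it gave 7.262, 40.74 and 2.446 with the vector, and 35.27, 27.41 and 35.38 with the shRNA. The DM vector arrays thus ran from below the pseudocount to above all DM shRNA arrays, with replicate 2 the high one. The rise with the shRNA in GM was 1.6 ± 0.319, a ratio of 3.93 (limma adjusted p = 0.00856), rank 26 of 14367. It did not pass with a pseudocount of 1 (1.94, adjusted p = 0.0831).

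In DM the shRNA change of Sfrp1 1448395_at was 0.77 ± 0.319 and did not pass (adjusted p = 0.12). Without DM vector replicate 2 it was 1.27 and passed (adjusted p = 0.00129). The interaction of -0.825 ± 0.451 did not pass either (adjusted p = 0.299). From GM to DM the probe set fell by 1.63 ± 0.319 in shRNA cells (adjusted p = 0.00116). In vector cells it fell by 0.802 ± 0.319 with an adjusted p of 0.0499, and that call was lost in 15 of 21 alternatives, over which the change ran from -1.70 to -0.368. Without DM vector replicate 2 it was -1.30 and without replicate 3 it was -0.464.

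On MB, Sfrp1 1428136_at gave 222.8, 214.7 and 206.3 in GM vector arrays and 925.0, 404.7 and 433.1 in GM shRNA arrays. In DM it gave 153.6, 73.42 and 44.13 with the vector and 120.1, 194.2 and 140.9 with the shRNA. The GM shRNA arrays were again the highest of the 12, replicate 1 by the most, and the DM groups overlapped. The GM change with the shRNA was 1.29 ± 0.367, a ratio of 2.74, with an unadjusted p of 0.00248 but an adjusted p of 0.252. In DM it was 0.774 ± 0.367 (adjusted p = 0.472). From GM to DM the signal fell by 1.78 ± 0.367 in shRNA cells (adjusted p = 0.00539), and without GM shRNA replicate 1 by 1.40 (adjusted p = 0.0549). In vector cells it fell by 1.26 ± 0.367 (adjusted p = 0.0363), a call lost without DM vector replicate 2 or 3 or without any one GM vector array (adjusted p from 0.0844 to 0.153), and also with median centring, without the trend and with the 2-group fit (0.0633 to 0.101).

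The other 3 Sfrp1 probe sets, all on MA, carried weaker evidence. At 1416594_at the signals were 3.645, 4.014 and 38.56 in GM vector and 58.28, 33.72 and 36.56 in GM shRNA arrays, a change of 1.09 ± 0.358 that did not pass (limma adjusted p = 0.0889). GM vector replicate 4 was the array that overlapped the shRNA group, and without it the change was 1.6 and passed (adjusted p = 0.00684). From GM to DM in shRNA cells the change of -0.951 did not pass (adjusted p = 0.0539), but it passed in 9 of 20 alternatives. Outside the GM shRNA arrays, only GM vector replicate 4 reached the signal of the filter. The probe set thus met the filter only with its GM shRNA arrays, where it was high. A rise in GM and a fall to DM in shRNA cells were therefore partly built into its selection, and these calls are given as a description. At Sfrp1 1438620_x_at the signals ran from 20.62 to 133.7, the groups of every comparison overlapped, and no change passed, except DM against GM in vector cells without GM vector replicate 1 (-0.97, adjusted p = 0.0465). Its GM change with the shRNA was 0.0291 (95% interval -0.723 to 0.781), unlike that of 1448395_at. By the naming of the array maker, the letter x marks probe sets some of whose probes also match other transcripts. Sfrp1 1460187_at stayed between 3.396 and 25.45 and was not tested.

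Dkk3 was covered by 2 MA probe sets. At 1417312_at the signals were 3.356, 9.572 and 14.64 in GM vector arrays and 52.48, 45.39 and 48.23 in GM shRNA arrays. In DM they were 12.92, 20.83 and 20.53 with the vector and 13.76, 17.59 and 19.60 with the shRNA. The GM shRNA arrays stood above the other 9, and the DM groups overlapped. The probe set passed the signal filter only through the GM shRNA arrays, so that a difference there had to appear and its calls are given as a description. The log2 change with the shRNA was 1.42 ± 0.219 in GM (limma adjusted p = 0.00148) and -0.0439 (95% interval -0.512 to 0.424) in DM, with an interaction of -1.47 ± 0.309 (adjusted p = 0.00784). From GM to DM it fell by 0.997 ± 0.219 in shRNA cells (adjusted p = 0.00264), while the vector change of 0.47 ± 0.219 did not pass (adjusted p = 0.0897).

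At Dkk3 1448669_at the GM signals were 31.34, 32.55 and 34.73 with the vector and 109.3, 51.85 and 76.94 with the shRNA. In DM they were 17.28, 19.49 and 27.44 with the vector and 31.46, 22.64 and 15.62 with the shRNA. The GM groups did not overlap and the DM groups did. The other Dkk3 probe set was selected through its GM shRNA arrays, so it adds no support. The rise with the shRNA in GM was 0.934 ± 0.232, a ratio of 2.41 (limma adjusted p = 0.0267). This call was lost without GM shRNA replicate 2 or 4 or without any one GM vector array, with adjusted p up to 0.132. It was also lost with the replicate block (0.899, adjusted p = 0.0621) and with no filter (adjusted p = 0.0532). In DM the shRNA change was 0.0602 (95% interval -0.437 to 0.557). From GM to DM, Dkk3 1448669_at fell by 1.28 ± 0.232 in shRNA cells (adjusted p = 0.000643), and the vector change of -0.404 did not pass (adjusted p = 0.167). The interaction of -0.874 ± 0.329 did not pass (adjusted p = 0.116).

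Some markers of other cell types moved beside these antagonists. Of the 5 fibroblast markers, 3 were tested and 2 rose with the shRNA in GM, Pdgfra (mean 13.55 with the vector and 50.65 with the shRNA) and Dcn (4.221 and 22.79). Pdgfra met the signal filter only with its GM shRNA arrays, where it was high, so its call is given as a description. The summed signal of the 5 was 191.1 to 196.4 in GM vector, 240.1 to 281.9 in GM shRNA, 363.4 to 571.9 in DM vector and 535.0 to 675.1 in DM shRNA arrays, most of it from Col1a1. The single markers differed: mean signals in DM vector and DM shRNA arrays were 2.271 and 10.19 for Pdgfra, 26.71 and 44.49 for Dcn, and 392.3 and 486.2 for Col1a1. Pdgfra was thus highest in GM shRNA arrays and lower in DM, an order partly built into its selection, whereas Col1a1 was higher in DM. Thy1 and Lum, which were not tested, had no higher mean with the shRNA in GM. Their GM vector and GM shRNA means were 27.65 and 26.62 for Thy1, and 18.31 and 16.21 for Lum. The DM vector and DM shRNA means were 24.98 and 25.81 for Thy1, and 31.98 and 18.67 for Lum. Summed skeletal muscle markers were 3709 to 4067 in GM vector and 3052 to 3455 in GM shRNA arrays. Summed smooth muscle, and bone and cartilage, markers overlapped between these groups. The adipocyte sums (279.5 to 338.3 and 333.3 to 381.8) and the macrophage sums (208.9 to 285.7 and 279 to 354.4) overlapped only at their edges. No tested gene of these lists passed with the shRNA in GM. Single means went both ways. Lmod1 (11.9 and 32.66), Cnn1 (46.82 and 79.5) and Sox9 (66.81 and 113.5) were higher, and Tagln (1308 and 1016) and Sp7 (127.8 and 98.9) lower. The macrophage marker Ptprc and the adipocyte markers Adipoq and Lep stayed under 15 on all 12 arrays, but they do not stand for their lists. The macrophage markers Csf1r (47.6 to 91.72), Cd14 (32.45 to 154.2), Lyz2 (25.27 to 82.42) and Adgre1 (16.58 to 70.02) were above 15 on all 12. So was the adipocyte marker Cebpa (113.8 to 307.5). The part of the marker differences in the antagonists' rise was not tested.

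**Figure D3:**
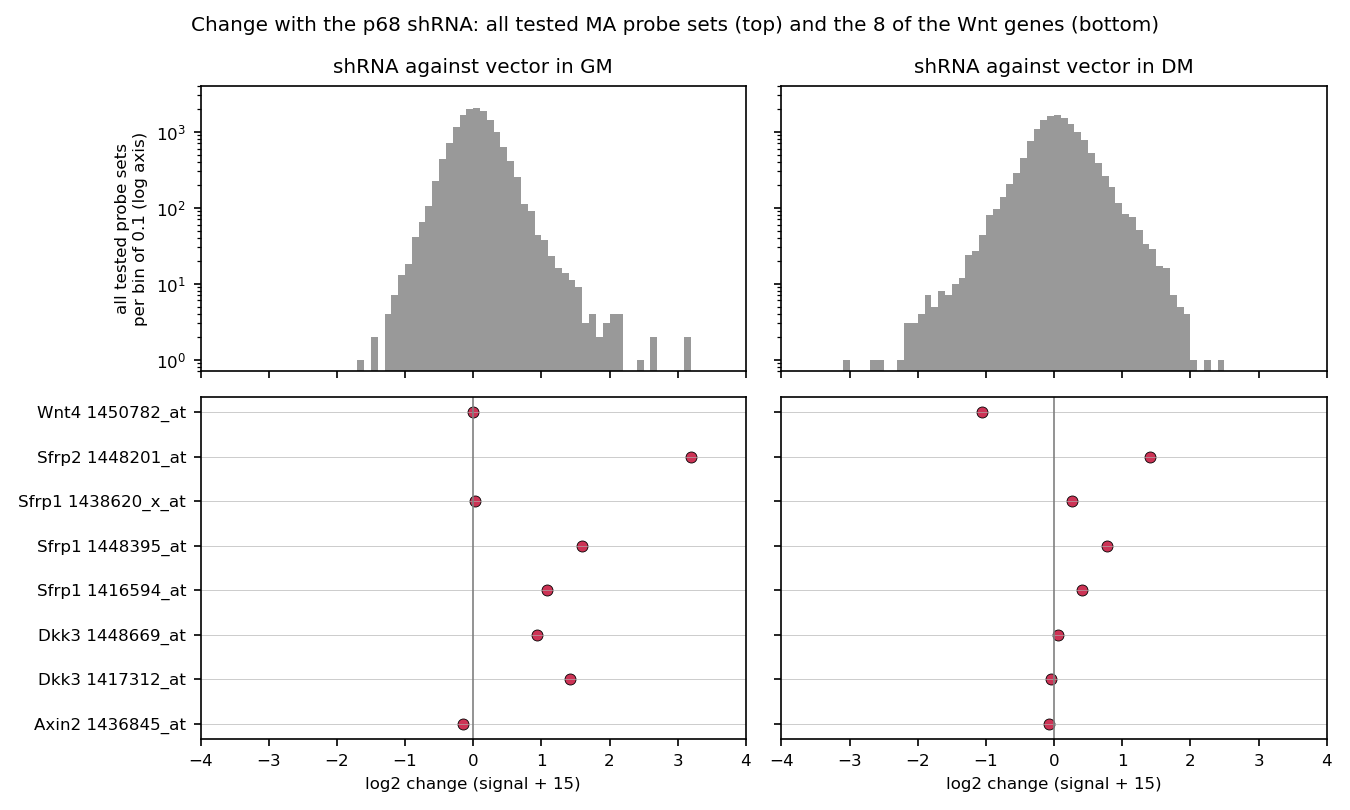
Log2 change with the p68 shRNA in GM (left) and DM (right). The upper panels count all 14367 tested MA probe sets in bins of 0.1 (log axis), and the lower panels place the 8 tested probe sets of the Wnt genes on the same scale. Sfrp2 is at the right end of the GM distribution at 3.2 and inside the DM distribution at 1.41, and Wnt4 is near 0 in GM and at -1.06 in DM.

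The remaining secreted antagonists were close to the lower end of the scale in all 4 groups. Frzb, a Frizzled-related protein known from cartilage, gave 1.075 to 5.348 at 1416658_at and 0.5153 to 13.48 at 1448424_at. Dkk2, which binds LRP co-receptors, gave 0.4792 to 1.682 at 1420512_at. Wif1 gave 0.1823 to 4.778 at 1425425_a_at. All 12 MA arrays were under 15 at each of these 4 probe sets, none was tested, and no difference was detectable at such signals.

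Wnt4, a ligand with canonical and noncanonical actions, was the ligand of the set that changed. On MA, 1450782_at gave 123.1, 170.9 and 121.7 in GM vector and 136.9, 143.1 and 128.5 in GM shRNA arrays. In DM it gave 65.14, 84.60 and 72.42 with the vector and 43.47, 40.96 and 8.728 with the shRNA. The GM groups overlapped, whereas the DM shRNA arrays all lay below the DM vector arrays, which all lay below GM. Wnt4 fell from GM to DM by 1.82 ± 0.27 in shRNA cells (limma adjusted p = 0.000111) and by 0.777 ± 0.27 in vector cells (adjusted p = 0.0267). The vector call was lost without DM vector replicate 1 (adjusted p = 0.0735) or GM vector replicate 3 (adjusted p = 0.11), with a pseudocount of 1 (-0.885, adjusted p = 0.1) and with no filter (adjusted p = 0.0509).

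With the shRNA, Wnt4 1450782_at fell in DM by 1.06 ± 0.27, a ratio of 2.38 (limma adjusted p = 0.0139). DM shRNA replicate 3, with a signal under the pseudocount, moved this value most, and without it the change was -0.633. Without DM vector replicate 2 the adjusted p was 0.0545, and with only the 2 compared groups fitted it was 0.0737. In GM the change was -0.00874 (95% interval -0.586 to 0.569). The interaction of -1.05 ± 0.382 did not pass (adjusted p = 0.104), so the effect of the shRNA on Wnt4 was not shown to differ between the media.

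On MB, Wnt4 1441687_at gave 315.3, 296.0 and 331.7 in GM vector arrays and 378.3, 321.0 and 347.1 in GM shRNA arrays. In DM it gave 250.5, 206.7 and 213.6 with the vector and 105.5, 81.22 and 241.5 with the shRNA. All DM arrays lay below all GM arrays, and DM shRNA replicate 3 lay among the DM vector arrays. The fall from GM to DM was 1.34 ± 0.297 in shRNA cells (limma adjusted p = 0.00991), lost without DM shRNA replicate 1 (adjusted p = 0.0569) or 2 (adjusted p = 0.0621) and without the trend in eBayes (adjusted p = 0.0562). In vector cells the change of -0.468 ± 0.297 did not pass (adjusted p = 0.431). The shRNA change in DM was -0.726 ± 0.297 (adjusted p = 0.363), and without DM shRNA replicate 3 it was -1.14 and passed (adjusted p = 0.0497). Leaving out the DM shRNA array numbered 3 thus moved the MA value of Wnt4 towards 0 and the MB value away from it.

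Wnt5a, the best known noncanonical ligand, showed no change that passed. Its MB probe set 1456976_at gave 95.65, 179.7 and 111.2 in GM vector and 115.7, 178.0 and 142.4 in GM shRNA arrays. In DM it gave 98.34, 209.5 and 153.2 with the vector and 135.5, 96.19 and 159.7 with the shRNA. The ranges of all 4 groups overlapped. The shRNA change was 0.182 (95% interval -0.546 to 0.910) in GM and -0.183 (95% interval -0.911 to 0.545) in DM, and changes within these intervals were not detectable with 3 arrays a group. The other Wnt5a probe sets, 1436791_at (0.3392 to 4.699) and 1448818_at (0.5412 to 15.09) on MA and 1437673_at (2.208 to 22.51) on MB, were not tested.

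Axin2 encodes a scaffold of the destruction complex and is a widely used readout of canonical Wnt signalling, since beta-catenin and TCF/LEF induce it as negative feedback. On MA, 1436845_at gave 25.49, 36.57 and 31.71 in GM vector and 25.15, 32.82 and 22.34 in GM shRNA arrays. In DM it gave 43.18, 20.28 and 28.11 with the vector and 31.44, 18.93 and 33.65 with the shRNA. All 4 groups overlapped and no change passed. The shRNA change was -0.148 (95% interval -0.631 to 0.335) in GM and -0.069 (95% interval -0.552 to 0.414) in DM. The change from GM to DM was -0.0469 (95% interval -0.530 to 0.436) in vector and 0.0322 (95% interval -0.451 to 0.515) in shRNA cells. At signals of 18.93 to 43.18, close to the pseudocount of 15, these log2 values understate changes of signal. Changes within the intervals were not detectable, so an unchanged Axin2 was not shown. The second Axin2 probe set, 1421341_at, stayed between 0.9414 and 6.873 and was not tested.

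The rest of the Wnt pathway was described with 7 lists, each gene by its MA probe set with the highest mean. Genes are named here only for calls that held when any one array was left out and under 2 other scalings, alternatives chosen for these lists after seeing the data, unless an exception is given. The lists share genes with the set (2 ligands, 6 modulators and Axin2). Among 9 tested ligands, 2 fell (Wnt4 and Wnt10a) and 0 rose from GM to DM in vector cells. The count of 2 was 1 without DM vector replicate 1 or GM vector replicate 3. Over all tested MA probe sets 25.4% fell and 23.9% rose there, so the share of ligands that fell was near the general one. Wnt10a fell there by 1.72 ± 0.183 (limma adjusted p = 1.92e-06), and with the shRNA in GM by 0.922 ± 0.183 (adjusted p = 0.00797). Wnt10b, a ligand that restrains fat cell formation, was higher with the shRNA in DM by 1.04 ± 0.215 (adjusted p = 0.00368), from a mean signal of 10.2 to 37.33. Its mean in GM vector arrays was 15.69, so it met the signal filter only with shRNA arrays, where it was high. This call is therefore given as a description. On MB, Wnt9a rose from GM to DM by 1.73 ± 0.199 in vector and 2.21 ± 0.199 in shRNA cells (adjusted p = 6.39e-06 and 4.95e-07). Wnt9a thus moved against Wnt4 and Wnt10a.

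With the shRNA in GM, 3.99% of all tested MA probe sets rose and 2.57% fell. Among 7 tested secreted modulators, 2 rose and 0 fell in that comparison (Sfrp2 and Dkk3). The list's median change of 0.194 stood beside 0.0393 over all tested probe sets. Without GM shRNA replicate 2 or 4, or without any one GM vector array, the count of 2 was 1. In the same comparison 1 of 9 ligands rose and 1 fell, 1 of 6 genes for Wnt secretion rose, 1 of 16 receptors rose, and 0 of 17 relay and 0 of 13 TCF/LEF genes passed in either direction. The single rises were each lost without GM shRNA replicate 2, and without 1 to 3 of the other GM arrays, and the receptor also with quantile normalization. The ligand that rose was Wnt10b, which had met the signal filter only with shRNA arrays. Among 12 textbook target genes, 3 rose (Bmp4, Ccn5 and Jun), a count of 0 or 1 without any one GM shRNA array or without GM vector replicate 1 or 3. Their median was -0.0252.

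Some genes that work on Wnt ligands before their release, and some receptors, passed in DM against GM. Porcn, which attaches the lipid to Wnt proteins, rose from GM to DM by 1.90 ± 0.164 in vector and 1.10 ± 0.164 in shRNA cells, and was lower with the shRNA in DM by a log2 change of -1.08 ± 0.164 (limma adjusted p = 0.000396). Wls, which carries Wnt proteins to the cell surface, fell by 0.646 ± 0.152 from GM to DM in shRNA cells (adjusted p = 0.00433). Of 16 receptors and co-receptors, 3 rose and 2 fell in vector cells, where 23.9% of all tested probe sets rose and 25.4% fell. In shRNA cells 5 rose and 1 fell, against 16.3% and 17.5%. In vector cells a smaller share of the receptors than of all probe sets thus passed. The count of 5 was 2 or 3 without any one DM shRNA or GM shRNA array, and 3 with each array centred on its median. Frizzled genes went both ways. Fzd6 fell by 1.41 ± 0.181 in vector and 1.57 ± 0.181 in shRNA cells, and on MB Fzd1 fell by 1.19 ± 0.181 in each. Fzd2 rose in vector cells by 0.602 ± 0.144 (limma adjusted p = 0.00283). Fzd9 rose there by 1.70 ± 0.252, from a mean signal of 7.958 to 58.35. It met the signal filter only with DM arrays, where it was high, so its rise is given as a description. Lrp5, a co-receptor to which Dkk proteins bind, rose in shRNA cells by 1.23 ± 0.263 (adjusted p = 0.00228).

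Among 17 relay and destruction complex genes, 3 rose and 6 fell from GM to DM in vector cells, near the shares of 23.9% and 25.4% over all tested probe sets. Axin1, the constitutive counterpart of Axin2, fell by 1.06 ± 0.128 in vector and 0.698 ± 0.128 in shRNA cells, and the kinase gene Csnk1a1 rose by 1.58 ± 0.121 and 1.04 ± 0.121. Among 13 tested TCF/LEF factors and beta-catenin cofactors, 8 fell and 0 rose in vector cells, where 25.4% of all tested probe sets fell, with a median of -0.515 against 0.00847 over all. With the shRNA in DM, 6 of the 13 rose (10.7% over all) and 1 fell, the last being Ddx5 itself, and the count of 6 was 3 without DM shRNA replicate 1 or DM vector replicate 2 and also 3 with each array centred on its median. Tcf7l1, a mostly repressing TCF, fell by 2.18 ± 0.167 from GM to DM in vector cells and was 0.962 ± 0.167 higher with the shRNA in DM (limma adjusted p = 0.00107). Ctnnbip1, an inhibitor of the binding of beta-catenin to TCF, was 1.02 ± 0.161 higher with the shRNA in DM (adjusted p = 0.000554).

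Among 12 tested textbook targets, 3 rose and 4 fell from GM to DM in vector cells, again near the 23.9% and 25.4% over all, so the counts set these targets apart from other genes in neither direction. Ccnd1, encoding cyclin D1, fell by 3.47 ± 0.149 and Fosl1 fell by 3.85 ± 0.25, while Fst, encoding follistatin, rose by 2.79 ± 0.178. With the shRNA in DM, 2 rose and 1 fell, where 10.7% of all tested probe sets rose and 6.24% fell. The fall (Myc) was lost without DM shRNA replicate 1 or DM vector replicate 1. Ccnd1 was higher by 1.63 ± 0.149 (limma adjusted p = 5.15e-06) and Bmp4 by 0.914 ± 0.179 (adjusted p = 0.0026). Axin2 of the same list, with signals close to the pseudocount, did not pass in any comparison.

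**Figure D4:**
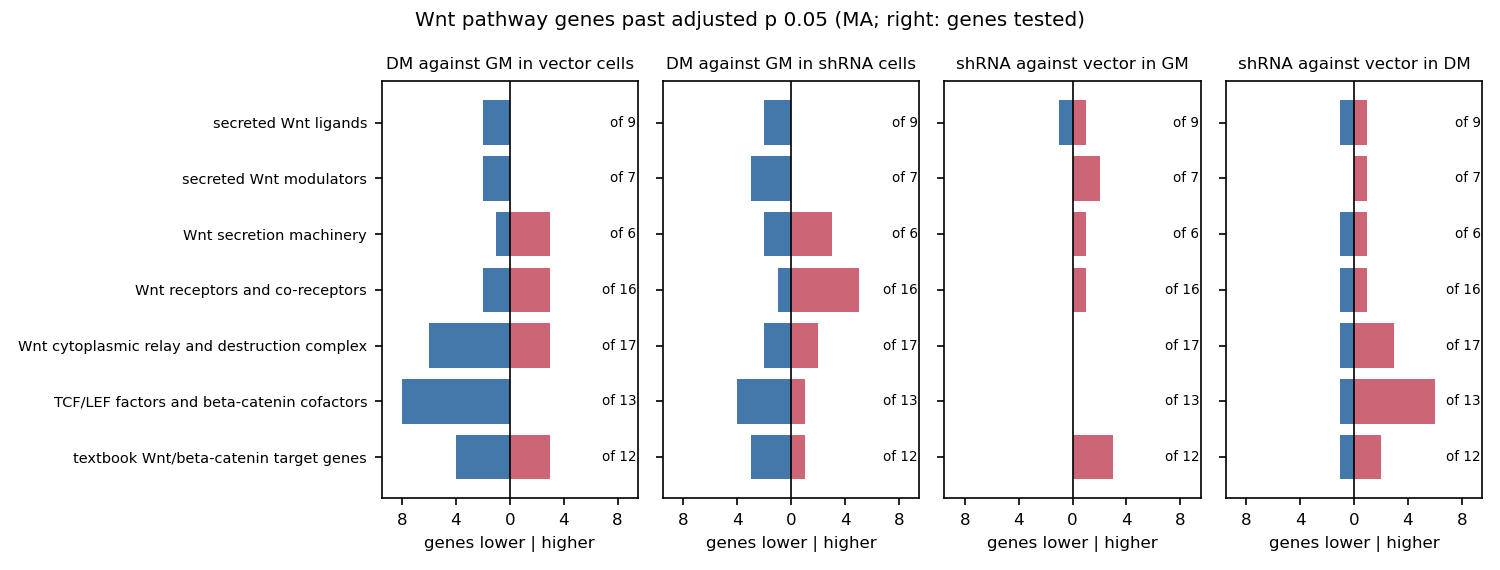
Number of genes in each of 7 Wnt pathway lists that passed an adjusted p of 0.05 on the MA design, lower to the left in blue and higher to the right in red, with the number tested at the right edge. The longest bar is the 8 lower TCF/LEF and cofactor genes in DM against GM of vector cells. Next are the 6 lower relay genes there and the 6 higher TCF/LEF and cofactor genes with the shRNA in DM. The latter count was 3 with each array centred on its median. No relay or TCF/LEF gene passed with the shRNA in GM.

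The genes whose log2 values followed a member most closely over the 12 arrays of its design were sought where the member's highest probe set reached the trimmed mean in a group. The 12 arrays form 4 groups, so a correlation mainly repeats the order of the group means, and it is given as a description. For Sfrp2 they were Aebp1 (r = 0.973), Galk2 (0.970) and Car3 (0.968). Aebp1, an extracellular matrix protein gene, had mean signals of 618.4 in GM vector, 1489 in GM shRNA, 317 in DM vector and 585.8 in DM shRNA arrays. For Sfrp1 on MB they were Col12a1 (r = 0.963), Fam102b (0.954) and Lhfp (0.949). Col12a1, a fibril-associated collagen gene, had mean signals of 893, 2377, 550.5 and 846.5 in the same order of groups. Wnt4 on MB was followed most closely by Aunip (r = 0.929), Sgms2 (0.923) and Dpm2 (0.915). Wnt5a was followed by Syt1 at a lower r of 0.823.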

How the data were processed

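Biotin-labelled total RNA of 4 groups of C2C12 cells was hybridised to 12 MA and 12 MB arrays. The authors deposited 1 linear intensity for each probe set and array; MAS5 is named in the submitters' processing notes, with no version. Detection calls were not used here. Arrays hold no molecule counts, so their number limits the precision.

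Control probe sets (64 on each design) were left out. Genes were named through GEO's platform annotation, only for probe sets with a single symbol (20380 on MA and 14661 on MB). Each design was fitted apart in limma 3.58.1 (R 4.3.3) with 4 group means and eBayes with a trend on log2(signal + 15), after the filter of 30 in 3 arrays, with 8 residual degrees of freedom. The residual SD had a median of 0.214 on MA and 0.523 on MB. Replicates are not said to be separate cultures, so the p-values cover just the spread among arrays of a group, possibly technical. The scripts were tested on simulated data.

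All probe sets of the 9 genes are described. At most 4 other genes per list, comparison and direction could be named, those with the largest change among the ones that passed, beside Ddx5, Myog and Ckm. The smooth muscle, adipocyte, bone, macrophage, fibroblast and muscle markers were summed without a test of the sums. The single marker genes Pdgfra, Dcn, Col1a1, Ptprc, Adipoq and Lep were picked with their values in view. So were Thy1, Lum, Csf1r, Cd14, Lyz2, Adgre1, Cebpa, Lmod1, Cnn1, Sox9, Tagln and Sp7. The members and lists were chosen with earlier results of these data known. Alternatives changed the pseudocount, filter, scaling, trend, samples fitted, block and arrays.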

Additional observations from a re-analysis of the deposited data

Results flagged for a closer look

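The effect of the shRNA differed between the media, by the test of the interaction in limma, at Sfrp2 and, with the limit below, at a Dkk3 probe set. For Sfrp2 1448201_at the effect in DM minus that in GM was -1.79 on the log2 scale (adjusted p = 4.61e-05), with a rise in both media. For Dkk3 1417312_at it was -1.47 (adjusted p = 0.00784), with signals in DM near the pseudocount in both cell kinds. This probe set reached the signal filter only through its GM shRNA arrays, so a difference confined to GM was built into its selection and the p-value is no independent result. No group had the 4 arrays that a check for single outlying arrays needs.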

How the results depend on the processing

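No change of direction past the threshold occurred for any of the 11 tested probe sets under the alternatives run. Counts of called probe sets of these genes moved as follows, by over 1.5 times unless they are the pseudocount's. With a pseudocount of 1 the MA counts went from 3 to 2 for DM against GM in vector cells and from 4 to 3 for the shRNA in GM, and with 50 from 3 to 2 in vector cells and from 5 to 6 in shRNA cells. On MA, DM against GM in vector cells gave 3, with no filter 1, and 1 to 3 with single arrays left out. With a filter of 100 the MA counts went from 5 to 3 for DM against GM in shRNA cells, from 4 to 2 for the shRNA in GM and from 2 to 1 for the interaction, since fewer probe sets were tested. With only the 2 compared groups fitted, the shRNA in DM gave 1 in place of 2. On MB, DM against GM in vector cells gave 1, but 0 with median centring, 0 without the trend and 0 with the 2-group fit, and 0 to 1 with single arrays left out. DM against GM in shRNA cells on MB gave 2, but 1 without the trend and 1 to 2 with single arrays left out, and the shRNA in DM on MB gave 0, or 0 to 1 with single arrays left out. Unless stated, the cause was not tested.

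Samples of the same replicate number deviated together (r over 0.1) in 5 of 9 pairs on MA (r from -0.139 to 0.293) and 0 of 12 on MB (-0.039 to 0.028). The main fit did not pair the samples on either design, although most MA pairs deviated together. What the MA pairs shared was not tested, and the replicate block was run as an alternative. With the replicate block, Dkk3 1448669_at with the shRNA in GM was 0.899 (adjusted p = 0.0621), and no other call of these probe sets changed. Signals under the pseudocount, 27.25 to 31.41% of MA and 9.027 to 19.95% of MB probe sets, carry little order.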
